A study of Mus musculus with 32 samples.

Results

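Sgk1, Sgk3, Nedd4l, Ndrg1 and Ndrg2 were taken as the serum- and glucocorticoid-regulated kinases Sgk1 and Sgk3, the ubiquitin ligase that they phosphorylate and 2 substrates of the Ndrg family. They were chosen by gene symbol, 5 of the 25239 genes counted, and all 5 passed the filter on low counts. The data are total RNA from the amygdala of both sides of wild-type mice in 3 states: baseline, acute stress and chronic stress. In each state mice were injected into the amygdala with 100 mM 4-thiouridine (4sU) in DMSO, or with DMSO alone, 24 h before RNA extraction. Of the 26 libraries, 14 came from 4sU mice (5 at baseline, 5 with acute and 4 with chronic stress) and 12 from DMSO mice (4, 5 and 3). All groups, the baseline ones included, carry the injection. The labels do not describe the stressors or the mice's age and sex. Nothing says that replicates of a group came from separate mice, so p-values reflect only how these libraries vary.

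Sgk1 is a serine/threonine kinase whose gene is switched on quickly by the glucocorticoid receptor, so that its mRNA follows corticosteroid hormone. It is activated through PDK1 and mTOR complex 2, and Sgk3 is a relative with a lipid-binding PX domain that holds it at endosomes. Nedd4l (Nedd4-2) marks ion channels such as the epithelial sodium channel for removal from the membrane, and phosphorylation by Sgk1 keeps it from doing so. Ndrg1 and Ndrg2 are cytoplasmic proteins whose phosphorylation is used as a readout of Sgk1 activity. In brain Ndrg1 is known from oligodendrocytes and Ndrg2 from astrocytes. None of these data measure phosphorylation.

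RefSeq (GRCm38.p6) promoter windows of 300 bases, from 250 before to 50 after a transcript start, were matched for 2 of the 5 genes, Sgk1 with 6 starts and Ndrg2 with 3. Sgk3, Nedd4l and Ndrg1 had no entry. The windows were searched for the palindrome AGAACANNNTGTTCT, the full form of the element bound by the glucocorticoid receptor, which reads the same on both strands. It occurred once, in the Sgk1 window at chr10:21993640-21993939, at positions 21993701 to 21993715. The match ends 175 bases before the start at 21993890 and 951 bases before the most downstream start, at 21994666. Of all 32851 windows 3 held it, 0.00913%, and the other genes were Acnat2 and Gm35041, which were not tested for expression. The looser form GNACANNNTGTNC, which overlaps the full one, was in 156 windows (0.475%), with the same Sgk1 window as the single match among those of Sgk1 and Ndrg2. The Sgk1 window with the match, in capitals, and the window of the most downstream start (chr10:21994416-21994715), both 5′ to 3′ on the plus strand, are shown because Sgk1 is the gene that rose. A match of letters is a description and no evidence of binding.
Sgk1 window with the match: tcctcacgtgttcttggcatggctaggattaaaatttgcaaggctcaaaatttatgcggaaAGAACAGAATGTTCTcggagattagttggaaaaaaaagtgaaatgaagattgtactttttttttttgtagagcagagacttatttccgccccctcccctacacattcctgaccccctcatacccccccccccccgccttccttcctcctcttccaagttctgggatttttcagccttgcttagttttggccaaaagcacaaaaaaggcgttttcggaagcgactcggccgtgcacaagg
Sgk1 window of the most downstream start: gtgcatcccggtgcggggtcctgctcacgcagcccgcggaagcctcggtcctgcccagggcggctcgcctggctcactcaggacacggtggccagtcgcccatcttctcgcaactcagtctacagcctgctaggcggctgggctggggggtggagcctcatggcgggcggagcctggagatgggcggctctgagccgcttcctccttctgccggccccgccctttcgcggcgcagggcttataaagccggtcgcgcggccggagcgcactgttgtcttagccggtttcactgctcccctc

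In mm10 coordinates, Sgk1 spans chr10:21882184-21999902 on the plus strand with 4157 exon bases, and Sgk3 chr1:9798130-9902568 on the plus strand with 5620. Nedd4l lies on the plus strand of chr18:64887756-65217826 with 8626 exon bases. Ndrg1 lies on the minus strand of chr15:66929318-66969641 with 2890, and Ndrg2 on the minus strand of chr14:51905271-51914004 with 2804. No exon of these genes overlapped an exon of another gene in the count tables.

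Exon counts totalled 16150316 to 21228741 per library, and each gene had at least 282 counts in every library. Levels are given as CPM, exon counts brought to a common library total with TMM factors that correct for composition. All 58 markers of 7 cell types had counts in every library, but choroid plexus markers differed widely in level. Their mean log2 CPM was 0.818, 5.19 and 3.62 in acute DMSO libraries 1, 3 and 4 and 3.76 in chronic 4sU library 3. In the other libraries it was 5.69 to 7.02. The part of this difference in the values below was not tested. The share of reads falling in 3′ UTR intervals was 16.1 to 17.4% in the 10 baseline and acute 4sU libraries and 18.2 to 23.9% in the other 16, where acute DMSO library 2 held 23.9% and the rest at most 20.3%. This library stood apart from its group: the chi-square per degree of freedom of its counts against each other acute DMSO library was 82.4 to 113, and 12.3 to 48.4 among those 4. Thus 4sU against DMSO at baseline and under acute stress, and chronic against baseline 4sU, set libraries of different make-up against each other. The same holds for the difference between arms in the chronic response. Acute DMSO libraries 1, 3 and 4 and chronic DMSO library 1 were low in glutamatergic neuron markers, with their mean log2 CPM more than 1 below the median of the 26 libraries. Values without these 4 libraries are given where they change a call or a direction. Each fit leaves out those of the 4 that it holds. Of the acute DMSO group such fits keep libraries 2 and 5 only, and library 2 is the one that stood apart.

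Per kilobase of exon, Ndrg2 was the most abundant of the 5 genes in every group, with group means of 248 to 305 CPM per kilobase. Sgk3 was the lowest, with group means of 3.40 to 8.81. Ndrg1 had group means of 60.6 to 87.4 and Nedd4l of 18.8 to 21.9 CPM per kilobase. Sgk1 moved furthest among them: its group means ran from 23.7 in baseline 4sU, near Nedd4l, to 118 in acute DMSO, above Ndrg1. Over the 26 libraries the highest CPM was 9.37 times the lowest for Sgk1, 4.17 times for Sgk3, 2.34 times for Nedd4l, 2.00 times for Ndrg1 and 1.48 times for Ndrg2.

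**Figure D1:**
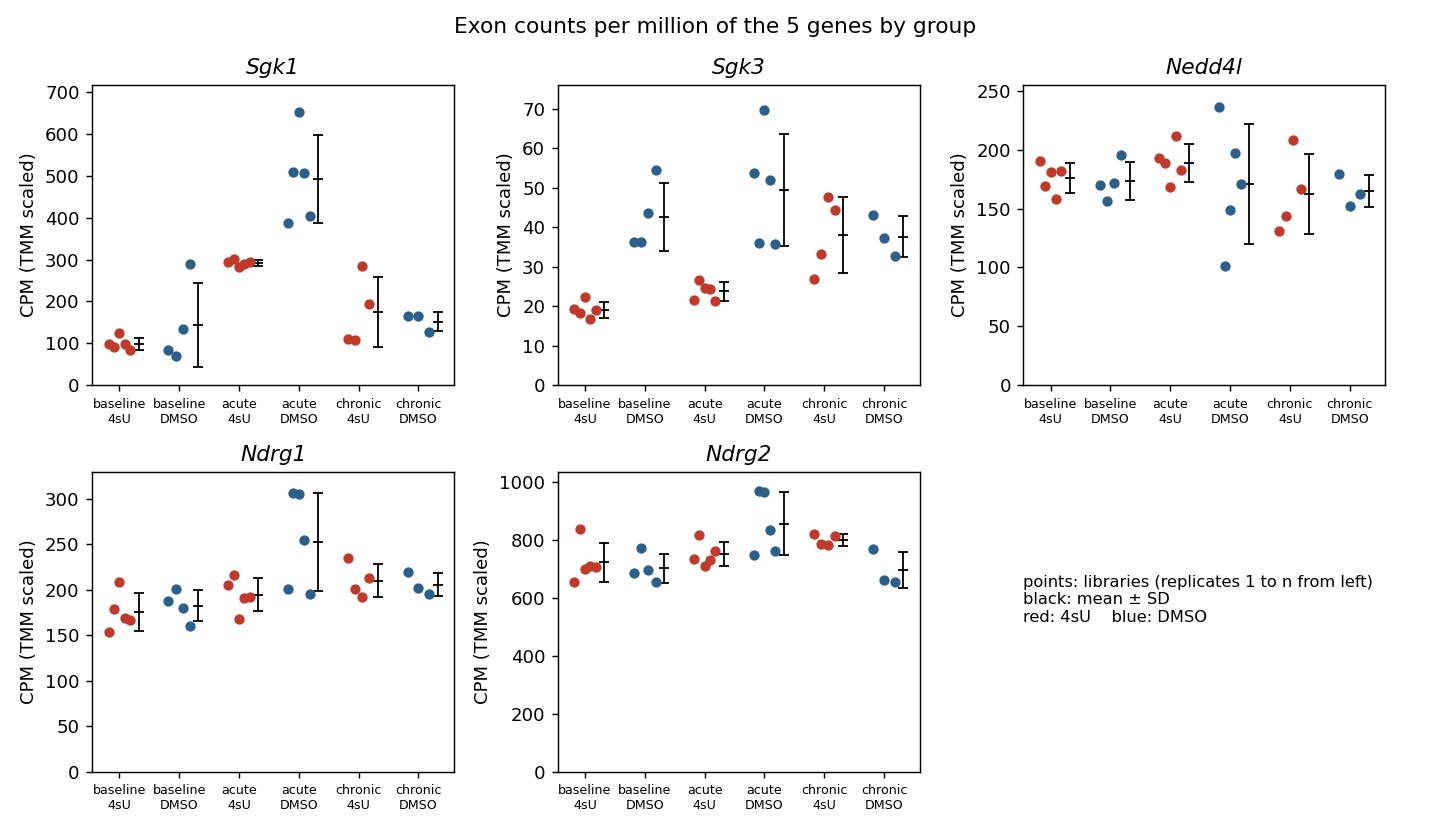
CPM (TMM scaled, linear axes from 0) of the 5 genes by group, with libraries as points in replicate order and the mean ± SD in black. The 5 acute 4sU libraries hold 282 to 302 CPM of Sgk1, above every baseline 4sU library, and Sgk3 is lower in baseline and acute 4sU libraries than in any DMSO library.

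Acute stress raised Sgk1 in both injection arms. Baseline 4sU libraries 1 to 5 had 97.5, 89.9, 124, 97.2 and 84.6 CPM of Sgk1 (98.5 ± 14.97, SD, n = 5), and acute 4sU libraries 294, 302, 282, 289 and 294 CPM (292 ± 7.40, SD, n = 5). These groups do not overlap, and the acute libraries lie close together. The log2 fold change was 1.57 ± 0.27 (SE; edgeR quasi-likelihood test, two-sided, Benjamini-Hochberg adjusted p = 0.0103).

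In DMSO mice, baseline libraries 1 to 4 had 83.9, 69.7, 134 and 289 CPM of Sgk1 (144 ± 101, SD, n = 4). Acute DMSO libraries 1 to 5 had 388, 509, 653, 507 and 404 CPM (492.6 ± 106, SD, n = 5). The groups do not overlap, although baseline library 4 stood at more than 2 times the level of any other baseline DMSO library and within the range of the acute 4sU ones. The log2 fold change was 1.79 ± 0.29 (adjusted p = 0.00287). Without baseline DMSO library 4 it was 2.35, and in a fit of these 2 groups alone the adjusted p was 0.143.

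Averaged over both arms, Sgk1 rose by 1.68 ± 0.20 on the log2 scale, which is 3.20-fold (adjusted p = 5.98e-05). It was the 1 gene of the 5 that passed in this average, where 2.39% of 15995 genes did. It was also the 1 that passed in 4sU mice (0.269% of genes called) and in DMSO mice (2.51%). The number of genes called in DMSO mice, 402, rests on single libraries: it ran from 143 without baseline DMSO library 1 to 906 without acute DMSO library 2. In the fit of these 2 groups alone it was 4. It was 2391 when the libraries low in glutamatergic markers were left out. That fit keeps acute DMSO libraries 2 and 5 only, which differ from each other by a chi-square per degree of freedom of 82.4. The arms gave no detectable difference in the size of the rise (-0.22 ± 0.39, adjusted p = 0.951). By edgeR 0 of the 5 genes passed for the arm difference, where 0% of genes were called. At an unadjusted p under 0.05 it was also 0 of the 5, against 916 of all genes, and DESeq2 called 0 of the 5 and 20 genes in all. In bulk tissue, fewer cells of a type and less RNA per cell cannot be told apart.

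Nedd4l, the ligase, showed no detectable change under acute stress, with a log2 fold change of 0.05 ± 0.11 on average (adjusted p = 0.908). Its acute DMSO libraries spread widely, at 236, 101, 149, 197 and 171 CPM, around baseline DMSO libraries at 170, 157, 171 and 195. Library 2, which stood apart, was the lowest, and without it the log2 fold change in DMSO mice was 0.14 (adjusted p = 0.491), against -0.0078 (adjusted p = 0.987) with it. Without acute DMSO libraries 1, 3 and 4, low in glutamatergic markers, the average was -0.12 (adjusted p = 0.424). That fit keeps acute DMSO libraries 2 and 5 only, and so rests in part on library 2. Sgk3 was between 16.7 and 22.3 CPM in 4sU mice at baseline and between 21.2 and 26.7 CPM under acute stress, which overlap, and its average log2 fold change was 0.27 ± 0.12 (adjusted p = 0.299). In DMSO mice its log2 fold change was 0.23 ± 0.17, and -0.23 (adjusted p = 0.276) with acute DMSO libraries 2 and 5 only.

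The Ndrg substrates had positive estimates that missed the threshold. Ndrg1 was at 188, 201, 180 and 160 CPM in baseline DMSO libraries and at 201, 306, 305, 254 and 195 CPM in acute DMSO libraries. Acute libraries 2, 3 and 4 lie above all baseline libraries, and libraries 1 and 5 within or near their range. The log2 fold change in DMSO mice was 0.49 ± 0.13 (adjusted p = 0.0545). The call was made with DESeq2 (adjusted p = 0.0138), with all 6 groups in the fit (0.0285) and with the replicate block (0.0465). It was also made without acute DMSO library 1 (0.0189) or 5 (0.0172). Leaving out the libraries of low glutamatergic markers, which keeps acute DMSO libraries 2 and 5 only, gave the call too (0.0440). In 4sU mice the log2 fold change of Ndrg1 was 0.15 ± 0.12, with acute libraries at 168 to 216 and baseline libraries at 153 to 209 CPM. Its average over both arms was 0.32 (adjusted p = 0.0714), called with DESeq2 (0.0241), in the fit of all 6 groups (0.0380), and without baseline 4sU library 3 (0.0497) or acute DMSO library 1 (0.0270) or 5 (0.0246).

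Ndrg2 was at 685, 771, 696 and 653 CPM in baseline DMSO libraries. In acute DMSO libraries it was at 748, 968, 966, 835 and 759 CPM, again with libraries 2, 3 and 4 highest. Library 2, which stood apart in its counts, is level with library 3 in both genes. Its log2 fold change was 0.30 ± 0.09 (adjusted p = 0.0965, 0.0331 with DESeq2 and 0.0409 without acute DMSO library 1). Oligodendrocyte markers moved beside both genes in the same DMSO libraries: 8 of 12 were higher under acute stress, with a median log2 fold change of 0.63, against 0 of 12 in 4sU mice with a median of 0.08. Of 10 astrocyte markers, 2 were higher and 1 lower in DMSO mice, with a median of 0.08. The mean log2 CPM of the oligodendrocyte markers was 8.54 to 8.99 in baseline DMSO and 8.98 to 9.66 in acute DMSO libraries, with library 3 highest. That of the astrocyte markers was 7.91 to 8.09 and 7.85 to 8.29. The part of either marker list in the Ndrg values was not tested.

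**Figure D2:**
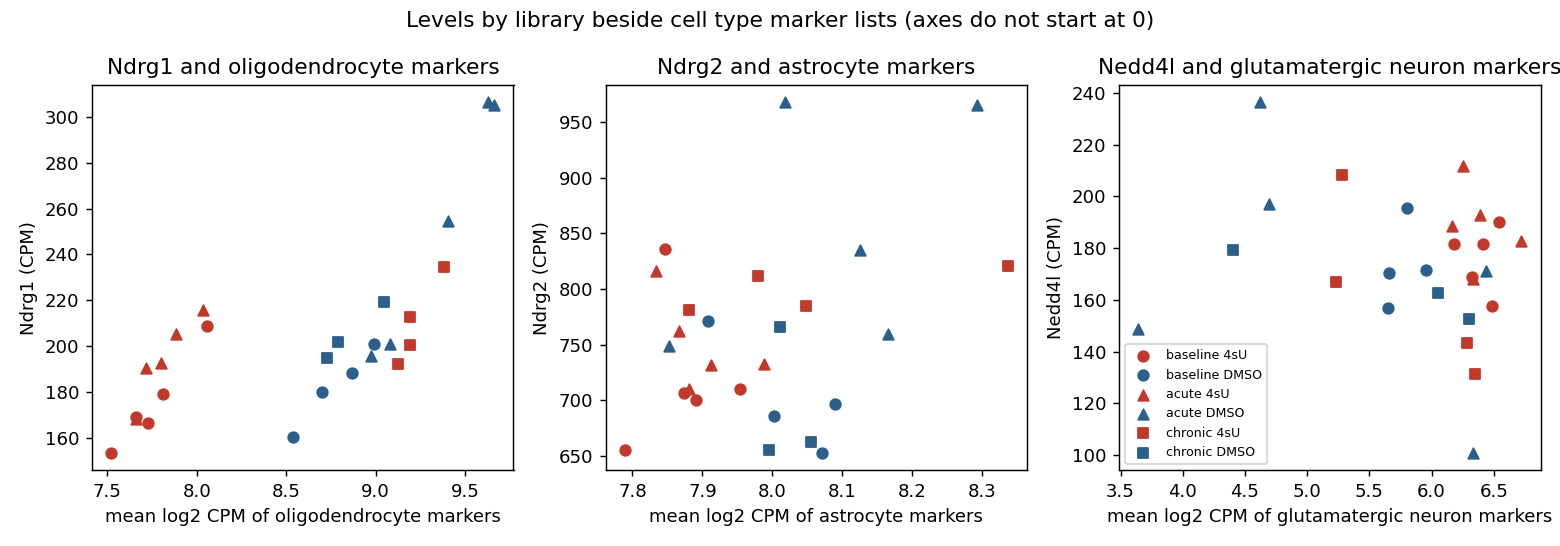
CPM of Ndrg1, Ndrg2 and Nedd4l in each of the 26 libraries against the mean log2 CPM of oligodendrocyte, astrocyte and glutamatergic neuron markers; colours give the injection, symbols the state, and axes do not start at 0. Within the baseline and acute 4sU libraries, and within the other 16, libraries with more oligodendrocyte marker RNA tend to have more Ndrg1. Nedd4l does not rise with the glutamatergic markers in this way. Among the 16, acute DMSO libraries 1 and 4 hold 236 and 197 CPM at marker levels of 4.62 and 4.70. Library 2 holds 101 CPM at 6.33, while library 3, lowest in these markers at 3.64, holds 149 CPM.

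Under chronic stress the calls differed between the 2 arms, but of the 5 genes only Sgk3 had a called arm difference, as given below. Chronic and acute comparisons share their baseline libraries, so they are not independent. In DMSO mice 0 of the 5 genes passed with edgeR, where 0% of 16096 genes were called. An unadjusted p under 0.05 was found for 0 of the 5 and 913 of all genes, and DESeq2 called 0 of the 5 and 11 genes. Sgk1 was at 165, 164 and 127 CPM in chronic DMSO libraries (152 ± 21.8, SD, n = 3), inside the range of the baseline DMSO libraries. Its log2 fold change was 0.08 ± 0.45 (adjusted p = 0.985), and 0.67 (adjusted p = 0.900) without baseline DMSO library 4.

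Set against acute stress in DMSO mice, chronic stress had less Sgk1, by a log2 fold change of -1.70 ± 0.36 (adjusted p = 0.0128), and the 3 chronic libraries lie below all 5 acute ones. It was the 1 of the 5 genes that passed, where 1.78% of 16310 genes did. The size held where the call was lost: without chronic DMSO library 2 or library 3 it was -1.74 (adjusted p = 0.0747) or -1.57 (0.126), in a fit of these 2 groups alone, which called 0 genes in all, -1.68 (0.0705), and with the libraries of low glutamatergic markers left out -1.63 (0.0913). The last of these fits kept acute DMSO libraries 2 and 5 and chronic DMSO libraries 2 and 3. Over all genes the 291 calls became 75 without chronic DMSO library 2 and 45 without library 3. Ndrg2 was lower by -0.30 ± 0.09 on the log2 scale (adjusted p = 0.101), with chronic libraries at 766, 662 and 655 CPM, and was called with DESeq2 (adjusted p = 0.0290) and without acute DMSO library 1 (0.0488) or 5 (0.0359).

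In 4sU mice, Sgk3 and Ndrg1 passed for chronic stress, 2 of the 5 genes, where 56.5% of genes were called. Sgk3 rose from 19.1 ± 2.05 (SD, n = 5) to 38.1 ± 9.70 CPM (SD, n = 4), with chronic libraries at 26.9, 33.3, 47.8 and 44.4, all above the baseline libraries. The log2 fold change was 0.97 ± 0.17 (adjusted p = 1.39e-04). The chronic response of Sgk3 differed between arms, by 1.15 ± 0.25 (adjusted p = 0.00205), and Sgk3 was the 1 of the 5 genes that passed this test, where 38% of genes were called. Means with 4sU and DMSO were 19.1 and 42.7 CPM at baseline and 38.1 and 37.6 CPM under chronic stress. Baseline and chronic 4sU libraries also differ in their share of 3′ UTR reads, so state and make-up cannot be told apart here. The chronic 4sU libraries overlap the DMSO libraries of the same state: chronic DMSO libraries had 43.0, 37.2 and 32.7 CPM of Sgk3.

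Ndrg1 rose in chronic 4sU mice by 0.24 ± 0.08 on the log2 scale (adjusted p = 0.0217), from 153, 179, 209, 169 and 166 CPM to 235, 200, 192 and 213 CPM, and the groups overlap. In DMSO mice the log2 fold change of Ndrg1 was 0.17 ± 0.10 (adjusted p = 0.887). The arms gave no detectable difference for it (0.07 ± 0.13, adjusted p = 0.722). The call in 4sU mice was lost with the all-group fit (adjusted p = 0.0726) and with the replicate block (0.0762). It was also lost without baseline 4sU library 1 (0.0585) or 5 (0.05001). All 12 oligodendrocyte markers were higher in chronic than in baseline 4sU mice, with a median log2 fold change of 1.52. Chronic 4sU libraries also lie on the other side of the division in 3′ UTR reads from baseline 4sU libraries. Their part was not tested. Sgk1 was spread over the chronic 4sU libraries at 111, 107, 284 and 194 CPM, with libraries 3 and 4 high, and its log2 fold change was 0.80 ± 0.39 (adjusted p = 0.101), which was called in the all-group fit (0.82, adjusted p = 0.0317). Libraries 3 and 4 were also the highest of the group in Sgk3 and Nedd4l and had the lowest glutamatergic marker levels of the group, at 5.28 and 5.23 mean log2 CPM. Nedd4l was called lower in chronic 4sU mice with 3′ UTR reads (-0.38, adjusted p = 0.0129) and without library 3 (-0.28, adjusted p = 0.0100). Ndrg2 had 0.13 there (adjusted p = 0.128), and was called without baseline 4sU library 2 (0.0193). It was also called (0.17, adjusted p = 0.0303) with chronic DMSO library 1, low in glutamatergic markers, left out of the fit. That library is in neither group compared, so the 4sU libraries compared stayed the same.

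**Figure D3:**
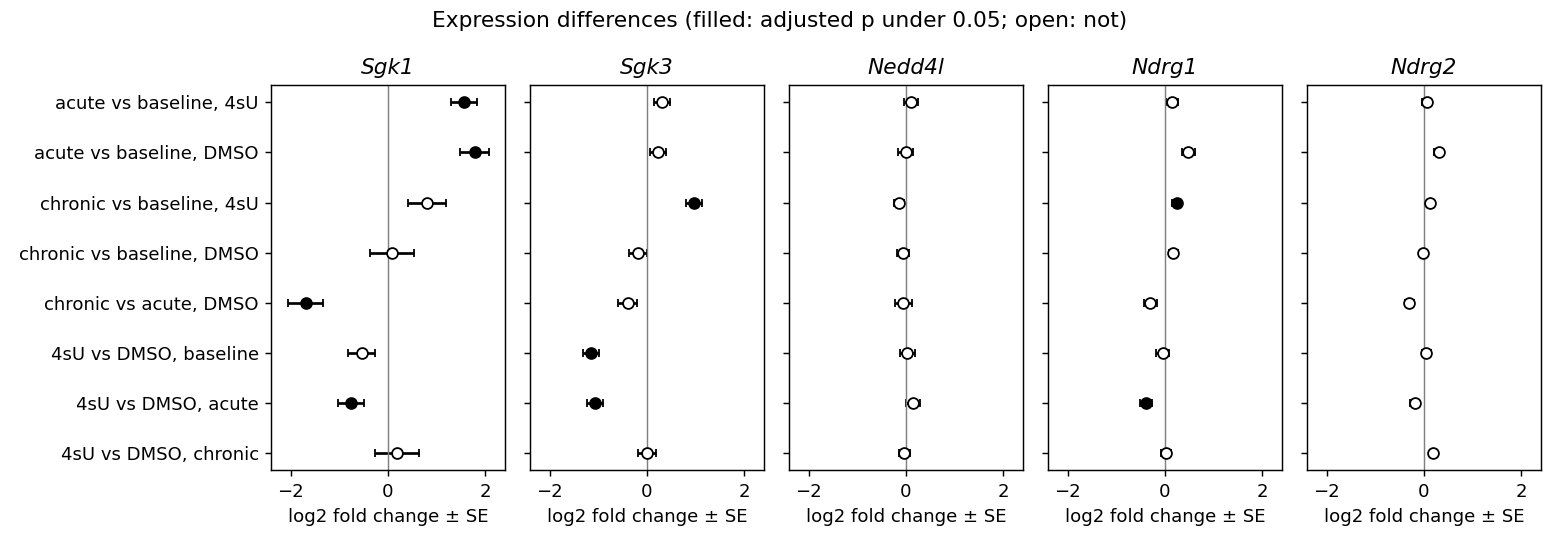
Log2 fold changes ± SE of the 5 genes in 8 comparisons from edgeR, with filled points where the adjusted p was under 0.05. Sgk1 has filled points at 1.57 and 1.79 for acute stress and -1.70 for chronic against acute stress, and Sgk3 at -1.15 and -1.07 for 4sU against DMSO.

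Sgk3 was lower with 4sU than with DMSO, at baseline and under acute stress. Baseline 4sU libraries had 19.3, 18.2, 22.3, 16.7 and 18.9 CPM, and baseline DMSO libraries 36.3, 36.3, 43.6 and 54.4. Acute 4sU libraries had 21.6, 26.7, 24.7, 24.4 and 21.2 CPM, and acute DMSO libraries 53.7, 36.1, 69.8, 51.9 and 35.9. Neither pair of groups overlaps. The log2 fold changes were -1.15 ± 0.17 (adjusted p = 2.38e-05) and -1.07 ± 0.16 (adjusted p = 1.98e-05). At baseline Sgk3 was the 1 of the 5 genes called, where 41.9% of genes were called, and under acute stress it was 1 of 3, where 48.3% were, so a call here is common.

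The other genes lower with 4sU under acute stress were Sgk1 and Ndrg1. For Sgk1 the log2 fold change was -0.76 ± 0.26 (adjusted p = 0.0229). Without the libraries low in glutamatergic markers, which keeps acute DMSO libraries 2 and 5 only, it was -0.65 (adjusted p = 0.131). With 3′ UTR reads the adjusted p was 0.0826. Ndrg1 had -0.38 ± 0.12 (adjusted p = 0.0150). Without acute DMSO library 3 the adjusted p was 0.0684 for Sgk1 and 0.0520 for Ndrg1, and without library 1 or 5 Ndrg2 was called lower (0.0303 and 0.0289). On all libraries Ndrg2 was called lower with DESeq2 (-0.20, adjusted p = 0.0478) and with the replicate block (-0.19, 0.0410). At baseline Sgk1 had -0.54 ± 0.28 (adjusted p = 0.130), which was 0.016 without baseline DMSO library 4 and was called without baseline DMSO library 1 (adjusted p = 0.0396) or 2 (0.0255). Nedd4l was at 0.14 ± 0.15 under acute stress (adjusted p = 0.453) and was called higher with 3′ UTR reads (0.42, adjusted p = 0.0313) and, at 0.47 (adjusted p = 0.0150), without the libraries low in glutamatergic markers. In the same 2 comparisons all 12 oligodendrocyte markers were lower with 4sU, with medians of -1.14 at baseline and -1.68 under acute stress. Their part was not tested.

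Under chronic stress no difference between 4sU and DMSO libraries was detectable. The log2 fold changes were 0.19 ± 0.45 for Sgk1, 0.01 ± 0.18 for Sgk3, -0.03 ± 0.12 for Nedd4l and 0.02 ± 0.10 for Ndrg1. Ndrg2 was at 821, 784, 781 and 811 CPM in chronic 4sU libraries, all above the chronic DMSO libraries, with a log2 fold change of 0.19 ± 0.08 (adjusted p = 0.444). By edgeR 0 of the 5 genes passed, where 0.137% of 16096 genes did. An unadjusted p under 0.05 was found for 1 of the 5 and 1475 of all genes, and DESeq2 called 0 of the 5 and 147 genes in all.

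Around the 5 genes, 62 pathway genes in 6 lists were followed, of which 58 were tested. Over both arms, acute stress raised 2 of the 58 and lowered 0, where 2.39% of all genes were called, with a median log2 fold change of 0.03 against 0.01 over all genes. One was Tsc22d3 (GILZ), a glucocorticoid-induced leucine zipper protein that protects Sgk1 from degradation. In 4sU mice its level rose from 48.0 ± 6.69 to 98.6 ± 6.60 CPM (SD, n = 5 each), and from 78.6 ± 12.3 (SD, n = 4) to 178 ± 47.9 CPM (SD, n = 5) in DMSO mice. Its log2 fold change was 1.12 ± 0.11 (adjusted p = 4.72e-06). Like Sgk1, it was lower in chronic than in acute DMSO libraries, by -1.23 ± 0.16 on the log2 scale (adjusted p = 1.62e-04), the 1 pathway gene of 58 that passed there.

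The other was Prr5 (Protor-1), a subunit of mTOR complex 2, the complex that phosphorylates Sgk1. Prr5 rose by 0.50 ± 0.08 on the log2 scale (adjusted p = 7.60e-04). In 4sU mice it was at 16.5 ± 1.36 CPM at baseline and 22.2 ± 1.69 CPM under acute stress (SD, n = 5 each). In DMSO mice alone, Tsc22d3 and Prr5 rose and Nos3, the endothelial nitric oxide synthase, fell by 0.62 on the log2 scale (adjusted p = 0.0468), from 14.6 ± 1.25 (SD, n = 4) to 9.39 ± 1.32 CPM (SD, n = 5); its log2 fold change in 4sU mice was 0.01 ± 0.15. Of 8 endothelial and mural cell markers, 3 were lower in DMSO mice (median -0.33) and 0 in 4sU mice (median 0.03), and their part in the Nos3 value was not tested. In 4sU mice alone, 1 of the 58 passed, Tsc22d3. The corticosteroid receptors and the enzymes that make or remove the hormone (3 tested) gave 0 calls with edgeR in each of these 3 tests, as did the other Sgk and Akt kinases (4) and the other Ndrg genes (2). Of the 20 channels, transporters and other targets tested, Nos3 was the single call.

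For each of the 5 genes the genes with the most similar profile were sought among 14745 genes, as the Pearson correlation of log2 CPM over the 26 libraries, which share the groups and the make-up differences above. Those nearest to Sgk1 were Plekhf1 (0.97), the cell cycle inhibitor Cdkn1a (0.96) and the arrestin-domain gene Arrdc2 (0.95). For Sgk3 they were Nus1 (0.94), the nuclear receptor Nr1d2 (0.94) and Mat2a (0.94), and for Nedd4l the neuronal transcription factor Myt1l (0.93), Arel1 (0.93) and the protein kinase Prkcb (0.93). Ndrg1 was nearest to Adssl1 (0.92), Csrp1 (0.91) and Ttyh2 (0.90). Ndrg2 was nearest to Kcnip1 (0.88), Adssl1 (0.86) and Asrgl1 (0.85). Among the 5 themselves the highest value was 0.82, for Ndrg1 with Ndrg2. Sgk1 had 0.54 with Ndrg1, 0.48 with Ndrg2, 0.50 with Sgk3 and 0.11 with Nedd4l.

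Newly made RNA was read as T-to-C conversion, the share of T positions covered by reads in a 3′ UTR interval that read as C after alkylation of 4sU. Over all intervals the rate was 0.0400 to 0.0778% in 4sU libraries and 0.0228 to 0.0318% in DMSO libraries, the latter being the background. Ndrg2 was called for label in all 3 states, Ndrg1 under chronic stress, and Sgk1, Sgk3 and Nedd4l in none. The Ndrg2 interval, chr14:51905271-51906138, had 138765 to 298045 covered T positions per library. Ndrg2 was the 1 gene of the 5 called at baseline (7.2% of 8662 genes called) and under acute stress (11.6%).

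Baseline 4sU libraries 1 to 5 had 275, 169, 204, 206 and 150 conversions in Ndrg2, or 0.198, 0.103, 0.140, 0.145 and 0.103% of T positions (0.138 ± 0.0390%, SD, n = 5). Baseline DMSO libraries had 45, 60, 58 and 29 conversions, or 0.0284, 0.0320, 0.0376 and 0.0203% (0.0296 ± 0.00727%, SD, n = 4). The groups do not overlap, and the log2 ratio was 2.21 ± 0.24 (edgeR on conversions with covered T positions as offset, adjusted p = 2.96e-17). Counting error is smaller than the spread between libraries: the 95% exact binomial interval was 0.175 to 0.223% in library 1 and 0.0873 to 0.121% in library 5. Such intervals cover counting error only.

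In acute 4sU libraries Ndrg2 had 0.259, 0.143, 0.195, 0.140 and 0.110% converted, against 0.0236 to 0.0312% in acute DMSO libraries, a log2 ratio of 2.59 ± 0.22 (adjusted p = 1.20e-28). In chronic 4sU libraries it had 0.144, 0.242, 0.206 and 0.253%, against 0.0327, 0.0289 and 0.0198% in chronic DMSO libraries, a log2 ratio of 2.95 ± 0.28 (adjusted p = 1.53e-22). Every 4sU library was above every DMSO library. By excess over DMSO in percentage points, Ndrg2 ranked 73 at baseline, 40 under acute and 45 under chronic stress among 8662 genes. By log2 ratio it ranked lower, at 261, 168 and 329. The excess was 0.108, 0.141 and 0.184 points, where the median over all genes was 0.00367, 0.00654 and 0.0120.

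**Figure D4:**
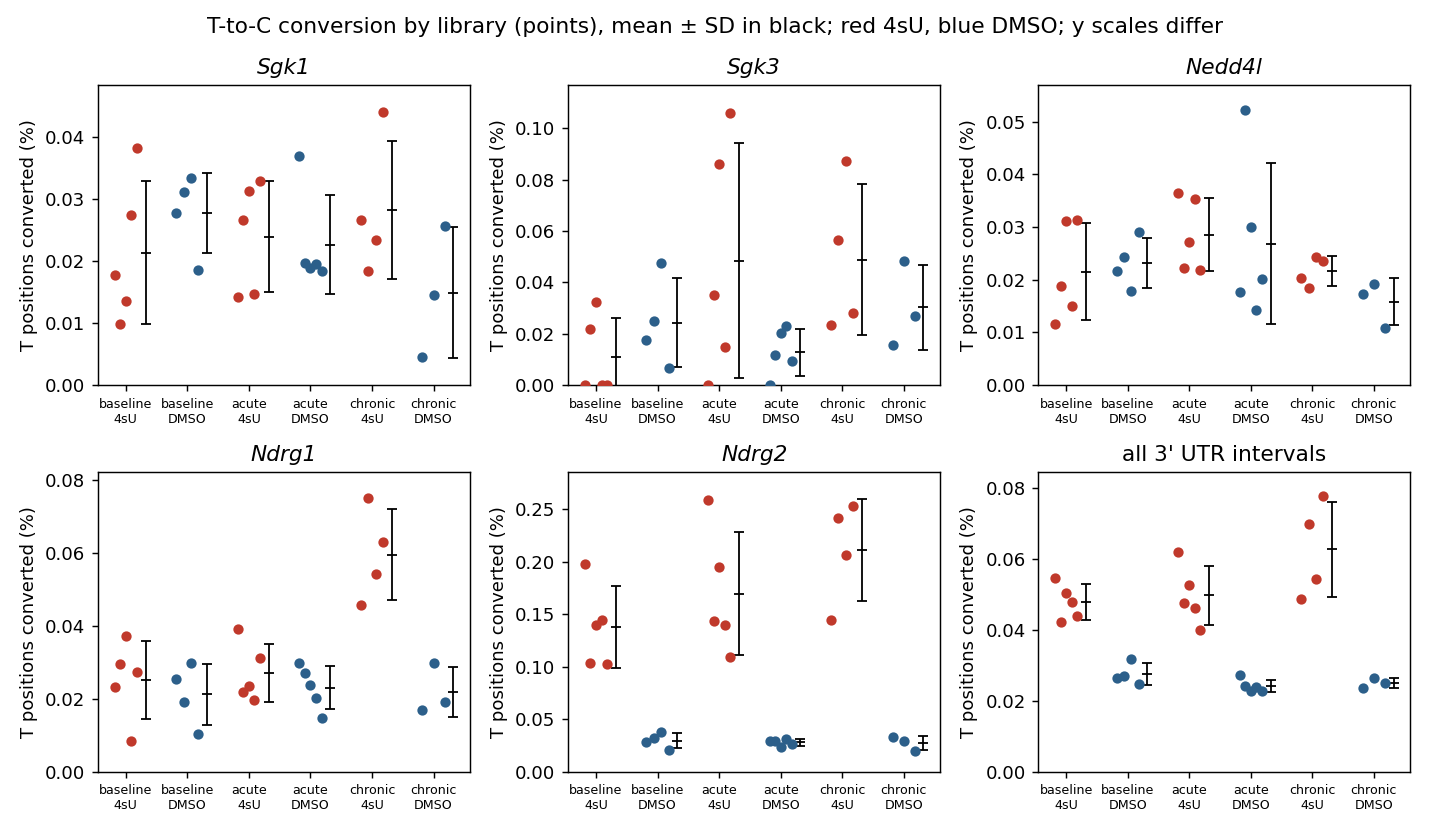
T positions converted (%) in the 3′ UTR interval of each of the 5 genes and over all intervals, by library, with the mean ± SD in black (bars end at 0) and y axes that differ between panels. Ndrg2 separates 4sU from DMSO in all 3 states, Ndrg1 in chronic libraries, and Sgk1 and Nedd4l overlap in every state.

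Ndrg1 was called in chronic libraries, which made 2 of the 5 genes there (14.1% of genes called). Chronic 4sU libraries had 40, 53, 41 and 53 conversions, or 0.0458, 0.0749, 0.0542 and 0.0629%, and chronic DMSO libraries 14, 24 and 14, or 0.0170, 0.0297 and 0.0191%. The groups do not overlap and the log2 ratio was 1.43 ± 0.38 (adjusted p = 0.00187). As a group, chronic 4sU libraries had the highest median overall rate (0.0621%), with single libraries at 0.0486 to 0.0778%. When libraries were scaled to a common overall rate the log2 ratio was 0.12 (adjusted p = 0.872). That scaling takes out the average label, so a gene with average label shows none by construction. The scaled ratio therefore does not test for label. At baseline and under acute stress the log2 ratio of Ndrg1 was 0.25 ± 0.37 and 0.22 ± 0.32.

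Sgk1 mRNA, whose level rose 3.20-fold after acute stress, held a share of converted T positions near the DMSO background. Acute 4sU libraries had 10, 22, 26, 11 and 27 conversions, or 0.0142, 0.0266, 0.0314, 0.0148 and 0.0329%. Acute DMSO libraries had 0.0369, 0.0197, 0.0188, 0.0196 and 0.0183%, so the groups overlap, and the log2 ratio was 0.10 ± 0.33 (adjusted p = 0.921). At baseline the ratio was -0.35 ± 0.48, and under chronic stress 1.02 ± 0.50 (adjusted p = 0.193). The label was given 24 h before extraction, and these data hold no other labelling time.

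Nedd4l had 0.0116 to 0.0364% in 4sU libraries and 0.0108 to 0.0522% in DMSO libraries, with log2 ratios of -0.10 ± 0.39, 0.16 ± 0.35 and 0.46 ± 0.47 at baseline, under acute and under chronic stress. Sgk3 had too few conversions for a rate per library: 0 to 13 over 4215 to 19565 covered T positions. In 3 of the 5 baseline 4sU libraries it had 0 conversions, which allows up to 0.0498 to 0.0712%. Its log2 ratio was 1.82 ± 0.76 under acute stress (adjusted p = 0.113) and -0.96 ± 1.04 at baseline.

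The share of label did not change detectably with stress in these genes. For acute against baseline stress 0 of the 5 passed with edgeR, where 0.0115% of 8662 genes did. An unadjusted p under 0.05 was found for 1 of the 5 and 564 of all genes. For chronic against baseline stress 0 of the 5 passed, where 0.3% of genes did, and 1 of the 5 and 707 of all genes had an unadjusted p under 0.05. No other tool was run for conversion. The log2 changes of Ndrg2 were 0.23 ± 0.14 and 0.24 ± 0.15. Ndrg1 under chronic stress had 0.83 ± 0.31 (adjusted p = 0.426), and 1.22 (adjusted p = 0.0411) without scaling to the overall rate.

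Label was also found in the other Ndrg genes. Ndrg4 had log2 ratios of 1.46 ± 0.21, 1.74 ± 0.20 and 1.88 ± 0.25 at baseline, under acute and under chronic stress, and Ndrg3 of 0.86 ± 0.26, 1.501 ± 0.25 and 1.69 ± 0.31; both passed in all 3. Of 51 pathway genes tested for conversion, 3 were called at baseline, 7 under acute and 9 under chronic stress, where 7.2%, 11.6% and 14.1% of all genes were, so these counts lie near the background. Ndfip1, an adaptor that activates Nedd4-family ligases, was called in all 3, with 2.06 ± 0.26 at baseline (adjusted p = 4.13e-13). Of 9 astrocyte markers tested, 5 were called at baseline, led by Gfap (2.92 ± 0.24) and Slc1a3 (2.73 ± 0.25), and 5 and 6 under acute and chronic stress. Of 12 oligodendrocyte markers 4, 5 and 8 were called.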

How the data were processed

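Total RNA of 26 amygdala libraries in 6 groups of state and injection was used. The authors deposited whole-number exon counts per gene symbol, with no normalization, in a baseline and acute and a baseline and chronic table; their 9 shared columns differed in 0 values and were joined. Named in the submitters' processing notes, without roles, are featureCounts 2.0.1, SAMtools 1.9, HISAT2 2.1.0, cutadapt 3.1 and mm10; for strand and multiple-match settings, nothing is given in the sources used here. Per the file headers, conversion tables came from slamdunk 0.4.3 and give counts of covered T positions, conversions and reads per 3′ UTR interval, the conversion rate as a fraction and reads as CPM; of 23996 intervals 23894 carried a symbol, and each gene was read from the interval where reads covered the most T positions.

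Expression tests were run in edgeR 4.0.16 on R 4.3.3 (TMM, filterByExpr, robust quasi-likelihood, 1 coefficient per group, two-sided, Benjamini-Hochberg over all genes); each table's 4 groups were fitted together, and all 6 for chronic against acute stress. A gene is called, or said to have risen, fallen or passed, at an adjusted p under 0.05; the SE is the log2 fold change over the square root of F. Conversion was tested where covered T positions averaged 2000 or more and none of the libraries had 0; the stress tests also scaled libraries to a common overall rate. The tests were tried on simulated data. Alternatives were DESeq2 1.42.0, other size factors, no filter, other sample sets, a replicate block, leaving out each library, 3′ UTR reads and, for conversion, a minimum of 500, summed intervals, reads with a conversion and other scaling. Leaving out the libraries low in glutamatergic markers was chosen after seeing the data. Tables and figures used Python 3.11.15, pandas 2.3.3, SciPy 1.17.1 and matplotlib 3.10.9. The 5 genes and all lists were chosen with earlier results of these data known. Named were all 5 genes, pathway genes that passed for acute stress (at most 4 a list) and the 3 genes most like each of the 5, with a mean of at least 1 CPM; other named genes were chosen after their values were seen. Auditory cortex libraries were not used here.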

Additional observations from a re-analysis of the deposited data

Results flagged for a closer look

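The chronic stress response of Sgk3 differed between the injection arms. Its log2 fold change in 4sU mice exceeded that in DMSO mice by 1.15 (SE 0.25, edgeR adjusted p = 0.00205), with 0.97 in 4sU and -0.17 in DMSO mice; 38% of genes were called in the same test, and the difference between baseline and chronic 4sU libraries in the share of 3′ UTR reads moves with it.

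The share of converted T positions of Sgk1 in acute DMSO library 1, at 0.0369%, lay far from the other 4 acute DMSO libraries, which held 0.0183 to 0.0197%. It rests on 39 conversions. Of 50 groups looked at, 1 had such a library, where chance gives about 1 in 20.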

How the results depend on the processing

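Sgk1 was called for acute stress on average and in 4sU mice under every alternative, and Sgk3 for chronic stress in 4sU mice, its arm difference and 4sU against DMSO at baseline and under acute stress. Ndrg2 was called for label in each state under every alternative. Over single values, alternatives other than leaving out 1 library gave 523 of the same call and direction, 16 newly called, 8 no longer called and 23 of the other sign; leaving out 1 library gave 768, 14, 6 and 52. The causes were not tested. Values of the other sign were not called in either fit. Depth limits conversion most in Sgk3 (0 to 13 conversions a library).

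Of the 5 genes, DESeq2 called 2 for acute stress on average, 3 in acute DMSO mice and 2 for chronic against acute stress. DESeq2 also called more genes in all. It called 667 and 819 of 15995 genes and 559 of 16310 in these tests, where edgeR called 382, 402 and 291. The fit of all 6 groups called 2 on average and 2 in acute DMSO mice, and fits of the 2 groups compared called 0 in acute DMSO mice and 0 for chronic against acute stress. Without the libraries low in glutamatergic markers 2 were called in acute DMSO mice and 0 for chronic against acute stress. Correlations of same-numbered libraries from different groups ran from -0.355 to 0.355. Differently numbered libraries were not correlated, so these values cannot settle whether replicate numbers pair the libraries. The replicate block called 2 in acute DMSO mice and 1 in chronic 4sU mice. It gave log2 fold changes of the other sign for Sgk1 (-0.12) and Sgk3 (-0.077) with 4sU under chronic stress. It did so too for Nedd4l (0.0018) for chronic against acute stress.

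Values of the other sign with 3′ UTR reads were the acute arm difference of Sgk3 (-0.059), Ndrg2 in chronic 4sU (-0.052) and DMSO mice (0.013) and its arm difference (-0.066), and Ndrg1 with 4sU under chronic stress (-0.0048). Without the libraries low in glutamatergic markers they were Nedd4l for acute stress on average (-0.12), its chronic arm difference (0.041), 4sU under chronic stress (0.036), chronic against acute stress (0.23) and label under acute stress (-0.29), and Sgk3 in acute DMSO mice (-0.23). With label scaled to a common overall rate they were Ndrg1 at baseline (-0.53), Sgk1 (-0.87), Nedd4l (-0.87) and Ndrg1 (-0.81) under acute stress, and Sgk1 (-0.28), Sgk3 (-0.52) and Nedd4l (-0.83) under chronic stress; 1 gene was called for label under chronic stress. For 4sU against DMSO this scaling takes out the average label, so such values only place a gene above or below that average. Without scaling in the stress tests, 1 was called for the chronic change of label, and Nedd4l was 0.018. By reads with a conversion, Nedd4l under acute stress was -0.030.

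Leaving out 1 library, the genes called ran from 1 to 2 for acute stress on average, 1 to 3 in acute DMSO mice, 1 to 3 in chronic 4sU mice, 0 to 2 for chronic against acute stress, 1 to 2 for 4sU at baseline and 1 to 4 under acute stress. Log2 values that crossed 0 were, for Nedd4l, -0.15 to 0.14 in acute DMSO mice, -0.024 to 0.12 on average, -0.039 to 0.25 and -0.21 to 0.063 for the acute and chronic arm differences, -0.19 to 0.094 for chronic against acute stress, -0.014 to 0.064, -0.019 to 0.28 and -0.17 to 0.059 for 4sU at baseline, under acute and under chronic stress, and -0.28 to 0.066 and -0.0087 to 0.50 for label at baseline and under acute stress. For Sgk1 they were -0.79 to 0.011 for the acute arm difference, -0.14 to 0.67 in chronic DMSO mice, -0.77 to 0.016 and -0.15 to 0.36 for 4sU at baseline and under chronic stress, and -0.033 to 0.33, -0.015 to 0.52 and -0.082 to 0.40 for label under acute stress and its acute and chronic change. For Sgk3 they were -0.036 to 0.24 (acute arm difference) and -0.11 to 0.14 (4sU under chronic stress). For Ndrg1 they were -0.14 to 0.0042 and -0.034 to 0.075 for 4sU at baseline and under chronic stress and -0.19 to 0.21 for the acute change of label, and for Ndrg2 -0.090 to 0.044 in chronic DMSO mice and -0.016 to 0.10 for 4sU at baseline.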
